A study of Homo sapiens with 16 samples.

Results

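PAQR5, MAP3K10, MMP15 and VANGL2 encode 3 membrane proteins and a cytoplasmic protein kinase, and their mRNAs were among those that lost the most ribosome-protected fragments (RPFs) when HEK293T cells were treated with tunicamycin (Tm). The 4 transcripts are uc002arz.2, uc002ona.3, uc002ena.3 and uc001fwc.2 in the deposited tables. They were chosen from among the strongest of these RPF falls, out of 19044 transcripts that could be joined between the assays. They are also in a list of 19 falling transcripts that the study drew from these same samples. The fall in Tm is therefore a description of how they were selected, and it is given here without a test. HEK293T cells derive from human embryonic kidney and express the large T antigen of SV40. Apart from an untreated group, the cells received Tm (1 µg/ml), ISRIB (200 nM) or the pair of drugs for 1 hr. Lysates from 2 biological replicates (a and b) of these 4 groups were split between Ribo-Seq, which counts RPFs, and mRNA-Seq, so that there are 16 libraries. All libraries come from the same cell line and no other genotype was used.

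Tm blocks N-linked glycosylation, and the misfolded proteins that build up in the ER activate the kinase PERK, which phosphorylates the initiation factor eIF2 on its α subunit. Phosphorylated eIF2 inhibits its exchange factor eIF2B, less initiator tRNA reaches the ribosome, and initiation slows on most mRNAs while a few with upstream open reading frames gain ribosomes. ISRIB is a small molecule that acts on eIF2B and makes cells insensitive to eIF2α phosphorylation. PAQR5 is a 7-pass membrane protein of the progestin and adipoQ receptor family and is known as membrane progestin receptor gamma. MAP3K10, also called MLK2, is a mixed-lineage kinase at the top of the JNK cascade. MMP15 is a membrane-type matrix metalloproteinase that cuts extracellular matrix at the cell surface. VANGL2 is a core planar cell polarity protein of the plasma membrane, needed for closure of the neural tube. PAQR5, MMP15 and VANGL2 are made at the ER, whereas MAP3K10 is made by ribosomes in the cytosol.

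The annotated start codons of these mRNAs are shown here in capitals, with 9 bases before the codon and the 12 coding bases after it. They are read 5′ to 3′ from the GENCODE v29 transcript that matched each gene by symbol and by coding length. Where initiation happens in these cells was not measured.
PAQR5: agctccaagATGctgagcctgaag
MAP3K10: ccctcccccATGgaggaggaggag
MMP15: gccgagagcATGggcagcgacccg
VANGL2: tcagacgccATGgacaccgagtcc
A purine 3 bases before the start codon and a G directly after it are the favoured surroundings of a mammalian start. MMP15 and VANGL2 have both, and PAQR5 has the purine and not the G. MAP3K10 has the G, with a C at the position where the purine is favoured. The same was read for 1751 named transcripts that were tested, matched in the same way and have a 5′ UTR, the 4 included. Of these, 86.1% have the purine and 54.0% have the G. On GRCh38, PAQR5 lies on the + strand at chr15:69359950-69407641, MAP3K10 at chr19:40191744-40215575, MMP15 at chr16:58025566-58046901 and VANGL2 at chr1:160400586-160428678, all on the + strand. These are coordinates of the annotation, since the reads had been mapped to hg19 and the deposited tables hold no positions. Reads were counted over the coding exons, of which PAQR5 and VANGL2 have 7 each and MAP3K10 and MMP15 have 10 each.

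On the joined transcripts, the libraries hold 3001612 to 11469150 counts in Ribo-Seq and 8466193 to 24499266 in mRNA-Seq, and both Tm libraries are the shallowest of the Ribo-Seq set. Levels are given as CPM, a read count relative to the size of its library, scaled by edgeR's TMM factors, so a change shared by all transcripts cannot be seen, and in bulk cells fewer translating cells and fewer ribosomes per cell cannot be told apart. All 4 transcripts passed the filter on low counts that left 10970 for testing, but only VANGL2 passed a stricter filter at 50 counts. The mRNA-Seq replicates in ISRIB stood apart from each other more than any other pair, with a chi-square per degree of freedom of 12.1 against 1.63 to 5.48 in the 7 other pairs of both assays, so the changes in mRNA and TE that rest on them are given with and without each. Of the defining genes listed for HEK293T and for other cell types, the tables used here name NES, a neural progenitor gene known to be expressed in these cells, with 28 to 95 mRNA counts per library, and the muscle actin ACTA1 with 86 to 315. ACTA1 shares most of its coding sequence with the abundant cytoplasmic actins, so its counts cannot be taken as its own.

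PAQR5 carried few footprints in any library and fewest in Tm. Its RPF level was 4.63 and 3.84 CPM in the untreated replicates a and b, 1.63 and 1.31 CPM in Tm, 4.12 and 3.73 CPM in Tm + ISRIB, and 3.42 and 3.46 CPM in ISRIB. The Tm libraries lay below all 6 others, and the Tm + ISRIB libraries fell inside the untreated range or just under it. These values rest on 37 and 43 reads in untreated cells and on 7 and 4 reads in Tm.

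MAP3K10 had the lowest RPF level of the 4. It stood at 3.63 and 2.5 CPM in untreated cells, 0.93 and 1.31 CPM in Tm, 2.4 and 3.58 CPM in Tm + ISRIB, and 2.96 and 1.56 CPM in ISRIB. The Tm libraries were again the lowest 2 of 8, but the gap to the next library, ISRIB replicate b, was small. With 4 reads in each Tm library and 9 reads in that ISRIB library, counting error alone is wide here.

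MMP15 stood at 9.26 and 8.58 CPM in untreated cells, 3.95 and 2.94 CPM in Tm, 9.44 and 7.62 CPM in Tm + ISRIB, and 5.01 and 10.2 CPM in ISRIB. Both Tm libraries were below the rest, and the ISRIB replicates differed from each other by about as much as Tm and untreated did. VANGL2 had the highest and steadiest RPF level, with 14.0 and 13.2 CPM in untreated cells, 5.35 and 5.88 CPM in Tm, 11.7 and 12.8 CPM in Tm + ISRIB, and 13.2 and 14.2 CPM in ISRIB. For VANGL2, no library outside Tm came within 5 CPM of the Tm libraries. Over all tested transcripts, 15.1% had both Tm libraries below the 6 others, and the 4 transcripts were selected on part of that pattern, so nothing is read from all 4 showing it.

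**Figure D1:**
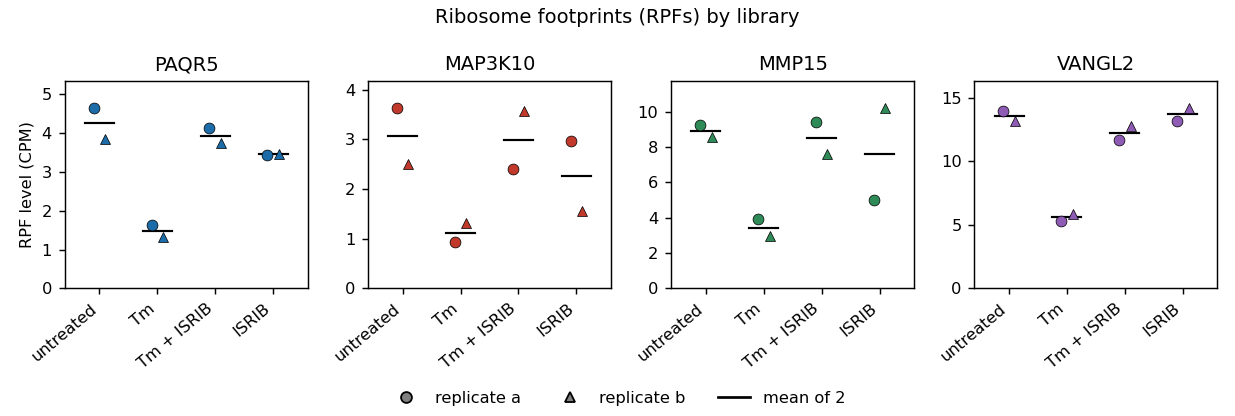
RPF level in CPM (linear y axis from 0, one panel per gene) of PAQR5, MAP3K10, MMP15 and VANGL2 in the 8 Ribo-Seq libraries, with circles for replicate a, triangles for replicate b and a bar at the mean of the 2. The Tm points are the lowest in every panel, at 1.31 to 1.63 CPM for PAQR5 and 5.35 to 5.88 CPM for VANGL2.

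In group means, PAQR5 went from 4.24 ± 0.557 CPM (SD, n = 2) in untreated cells to 1.47 ± 0.227 in Tm, and its fitted RPF change was -1.48 ± 0.42 on the log2 scale (SE), a 2.78-fold fall. MAP3K10 went from 3.07 ± 0.797 to 1.12 ± 0.266 CPM, a log2 change of -1.44 ± 0.53. MMP15 went from 8.92 ± 0.482 to 3.45 ± 0.717 CPM, a log2 change of -1.33 ± 0.32. The 4 falls are of like size, between 2.43-fold and 2.78-fold, and their standard errors overlap throughout. VANGL2, with the most reads, had the smallest of the 4 falls and the smallest error, from 13.6 ± 0.558 to 5.61 ± 0.376 CPM and a log2 change of -1.28 ± 0.23. At the untreated level, the Tm libraries together would have held 31.2 reads of PAQR5 and held 11. The same reckoning gives 22.6 reads against 8 for MAP3K10 and 65.7 against 26 for MMP15. These reads come from the libraries that chose the transcripts, so they describe the fall and do not test it.

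Among transcripts with a false discovery rate (FDR) under 0.1 in edgeR's quasi-likelihood test and both Tm libraries below both untreated ones, these 4 took the leading places by size of RPF fall. The rule chose the 4 for this fall in the same libraries, so nothing is read from their places or from their passing the FDR. The quasi-likelihood test called a fall in 7.21% of the 10970 transcripts. A fall of more than 2-fold was called in 0.155% of them, or 17 transcripts. VANGL2, the last inside, had a log2 change of -1.28. Just outside came a transcript with no symbol in the tables used here, at -1.26 ± 0.42 with 75 untreated and 12 Tm reads, and then PTPN21, a cytoplasmic tyrosine phosphatase, at -1.25 ± 0.44. After another transcript with no symbol, at -1.14 ± 0.33, DET1, an adaptor of a ubiquitin ligase, followed at -1.13 ± 0.37, SH3RF3 at -1.12 ± 0.35 and MAPK8IP1 at -1.11 ± 0.34. The boundary is thus finer than the errors on either side of it. A further 10 transcripts had a larger fitted fall than VANGL2 and did not pass the FDR.

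The mRNA of the 4 genes did not follow one course. PAQR5 mRNA was 4.2 and 3.77 CPM in untreated cells, 4.63 and 6.25 CPM in Tm, 4.62 and 5.02 CPM in Tm + ISRIB, and 5.18 and 5.13 CPM in ISRIB. The untreated libraries were the lowest 2 of the 8, so the mRNA stood higher in Tm than in untreated cells while the footprints stood lower. MAP3K10 mRNA was steady, at 10.2 and 9.48 CPM in untreated cells, 10.6 and 11.8 CPM in Tm, 11.1 and 10.7 CPM in Tm + ISRIB, and 11.6 and 11.9 CPM in ISRIB. MMP15 mRNA was the scarcest, between 1.78 CPM in Tm replicate a and 3.27 CPM in Tm replicate b, with all 6 other libraries in between.

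VANGL2 mRNA was 11.8 and 6.35 CPM in the untreated replicates, 5.1 and 5.69 CPM in Tm, 6.9 and 6.75 CPM in Tm + ISRIB, and 6.9 and 13.9 CPM in ISRIB. Thus untreated replicate a and ISRIB replicate b stood above the 6 other libraries, which lay between 5.1 and 6.9 CPM. The RPF levels of the same 2 lysates were raised little, at 14.0 and 14.2 CPM beside 13.2 CPM in both partner libraries.

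**Figure D2:**
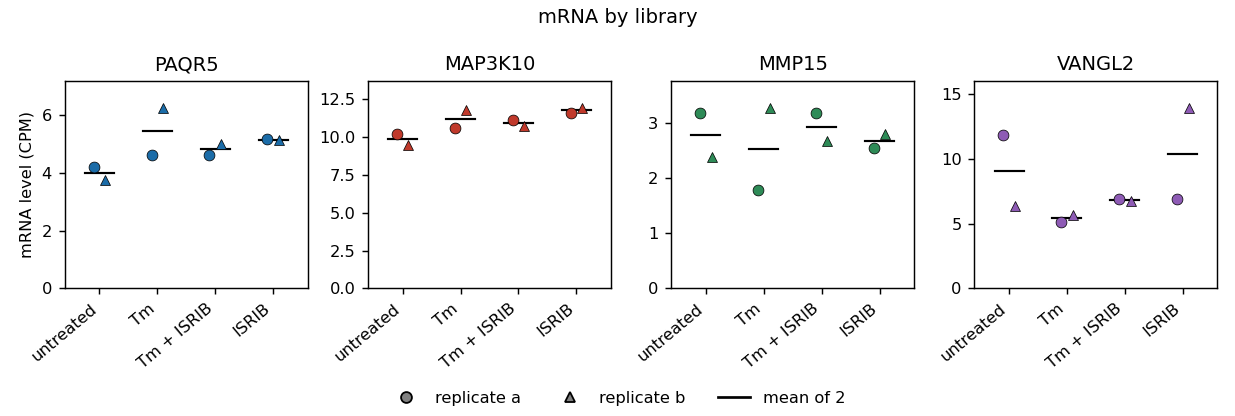
mRNA level in CPM (linear y axis from 0, one panel per gene) of the same 4 genes in the 8 mRNA-Seq libraries, with circles for replicate a, triangles for replicate b and a bar at the mean of the 2. MAP3K10 stays between 9.48 and 11.9 CPM, and VANGL2 has 2 high points, 11.8 CPM in untreated replicate a and 13.9 CPM in ISRIB replicate b.

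The mRNA change in Tm against untreated cells was 0.46 ± 0.20 for PAQR5, 0.19 ± 0.13 for MAP3K10, -0.11 ± 0.30 for MMP15 and -0.76 ± 0.35 for VANGL2 (log2 ± SE). Translational efficiency (TE), the RPF change less the mRNA change, therefore separated the 4 more than RPFs did. TE changed by -1.94 ± 0.42 for PAQR5, -1.63 ± 0.49 for MAP3K10, -1.22 ± 0.49 for MMP15 and -0.53 ± 0.46 for VANGL2. For PAQR5 and MAP3K10, TE fell by more than the footprints, and for VANGL2 by less. The MMP15 and VANGL2 values depended on single libraries. For MMP15 the TE change was -0.51 without Tm replicate b and -1.81 without Tm replicate a. For VANGL2 the mRNA change was -0.23 and the TE change -1.02 without untreated replicate a, and -1.12 and -0.20 without replicate b. The PAQR5 mRNA change was 0.21 without Tm replicate b and 0.65 without Tm replicate a, and that of MAP3K10 0.10 and 0.26. No test is given for these values because the lysates are those that chose the transcripts.

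Within each lysate, the ratio of RPF to mRNA level shows the same contrast. PAQR5 had a ratio of 1.1 and 1.02 in untreated cells, 0.352 and 0.209 in Tm, 0.892 and 0.743 in Tm + ISRIB, and 0.659 and 0.675 in ISRIB. The ratio in Tm was the lowest, and the ratio in ISRIB alone also lay below that in untreated cells. MAP3K10 had 0.357 and 0.264 in untreated cells, 0.0881 and 0.111 in Tm, 0.217 and 0.333 in Tm + ISRIB, and 0.255 and 0.131 in ISRIB. MMP15 had 2.9 and 3.59 in untreated cells and 2.22 and 0.9 in Tm, and its ISRIB replicate a, at 1.97, fell within the Tm range. VANGL2 had 1.18 and 2.08 in untreated cells and 1.05 and 1.03 in Tm, and its ISRIB replicate b, at 1.02, was as low as the Tm lysates.

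The 4 mRNAs were thinly covered but loaded to very different degrees. Per kilobase of counted coding sequence, untreated cells had an RPF level of 4.54 CPM for PAQR5, 1.09 CPM for MAP3K10, 4.57 CPM for MMP15 and 9.04 CPM for VANGL2, where the median over the 10970 tested transcripts was 20.9 CPM. The mRNA level per kilobase was 4.27, 3.5, 1.43 and 6.04 CPM in the same order, where the median was 22.9 CPM. All 4 thus lay below the median on both scales. The ratio of the 2 levels in untreated cells, a measure of resting translation, was higher than in 90.9% of tested transcripts for MMP15, 68.5% for VANGL2, 51.9% for PAQR5 and 7.41% for MAP3K10. MMP15 was therefore a scarce mRNA with many ribosomes, and MAP3K10 a scarce mRNA with few. In Tm the ratio was higher than in 64.6% of transcripts for MMP15, 50.8% for VANGL2, 5.19% for PAQR5 and 0.483% for MAP3K10. Their order was the same in all 4 treatments. In Tm + ISRIB it stood at 89.8% for MMP15, 76.6% for VANGL2, 37.8% for PAQR5 and 4.42% for MAP3K10.

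The comparison of Tm + ISRIB with ISRIB asks what Tm did while ISRIB was present, and none of its libraries took part in the choice of the 4 transcripts. None of the 4 passed an FDR of 0.1 in RPFs, where edgeR called 1.34% of the 10970 transcripts. PAQR5 changed by 0.19 ± 0.34 (log2 ± SE, 95% interval -0.51 to 0.88, adjusted p = 0.90 in edgeR). MAP3K10 changed by 0.47 ± 0.43 (-0.41 to 1.34, adjusted p = 0.75). In MMP15 the change was 0.11 ± 0.26 (-0.43 to 0.65, adjusted p = 0.92), and in VANGL2 it was -0.17 ± 0.18 (-0.54 to 0.21, adjusted p = 0.81). These intervals allow a fall to 0.704-fold in PAQR5, 0.752-fold in MAP3K10, 0.743-fold in MMP15 and 0.686-fold in VANGL2, and a rise of up to 1.84-fold in PAQR5 and 2.54-fold in MAP3K10. The difference between the effects of Tm without and with ISRIB was not tested, because the former chose the transcripts. For MMP15 the sign turned to -0.26 without ISRIB replicate a and to -0.05 without Tm + ISRIB replicate a, and it was 0.76 without ISRIB replicate b. For MAP3K10 it moved between 0.03 without ISRIB replicate b and 0.94 without ISRIB replicate a.

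**Figure D3:**
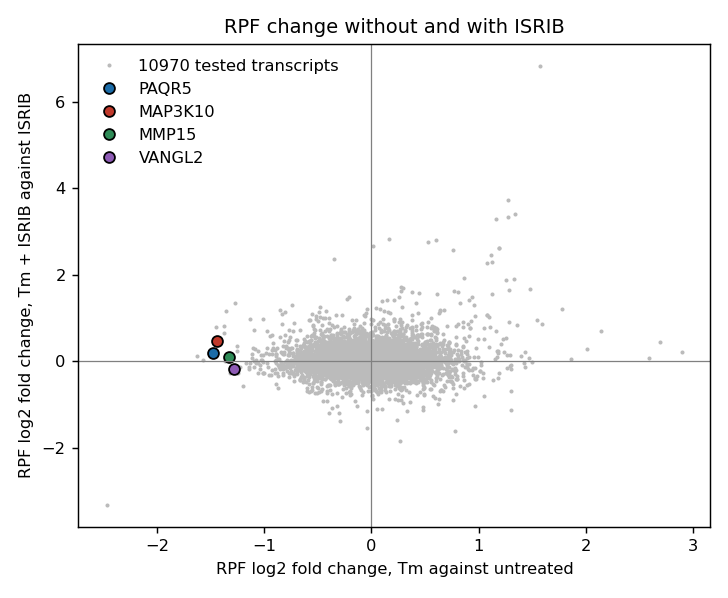
RPF log2 fold change in Tm against untreated cells (x axis) and in Tm + ISRIB against ISRIB (y axis) for the 10970 tested transcripts in grey, with PAQR5, MAP3K10, MMP15 and VANGL2 as coloured points. The 4 lie far to the left, between -1.48 and -1.28, where the rule put them, and between -0.17 and 0.47 on the y axis. A further 10 transcripts had a larger fitted fall than VANGL2 on the x axis and did not pass the FDR there.

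In mRNA, edgeR called 0.0% of transcripts in this comparison, with 1697 at an unadjusted p under 0.05 and 91 called by DESeq2. The changes were -0.09 ± 0.18 in PAQR5 (95% interval -0.49 to 0.31), -0.11 ± 0.12 in MAP3K10 (-0.37 to 0.15) and 0.12 ± 0.27 in MMP15 (-0.48 to 0.73), with adjusted p in edgeR of 0.82, 0.65 and 0.84. Without ISRIB replicate a and without replicate b these were -0.07 and -0.09, -0.11 and -0.09, and 0.06 and 0.18. VANGL2 mRNA changed by -0.57 ± 0.31 (-1.25 to 0.11, adjusted p = 0.37 in edgeR), and the 2 ISRIB libraries decide it. Without ISRIB replicate b, the library with the high VANGL2 count, the change was -0.02 (adjusted p = 1.0 in edgeR), and without ISRIB replicate a it was -1.01 (adjusted p = 0.018 in edgeR). That last setting raised the calls over all transcripts from 0 to 3098.

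TE passed the FDR in none of the 4, beside 1.18% of all transcripts. It changed by 0.28 ± 0.34 in PAQR5 (95% interval -0.44 to 0.99), 0.58 ± 0.40 in MAP3K10 (-0.25 to 1.41), -0.01 ± 0.40 in MMP15 (-0.84 to 0.81) and 0.40 ± 0.37 in VANGL2 (-0.37 to 1.17), with adjusted p in edgeR of 0.77, 0.51, 0.99 and 0.65. The ISRIB libraries weighed on 3 of these values. Without ISRIB replicate a and without replicate b, TE changed by 1.06 and 0.12 in MAP3K10, -0.33 and 0.58 in MMP15, 0.79 and -0.09 in VANGL2, and 0.24 and 0.29 in PAQR5.

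**Figure D4:**
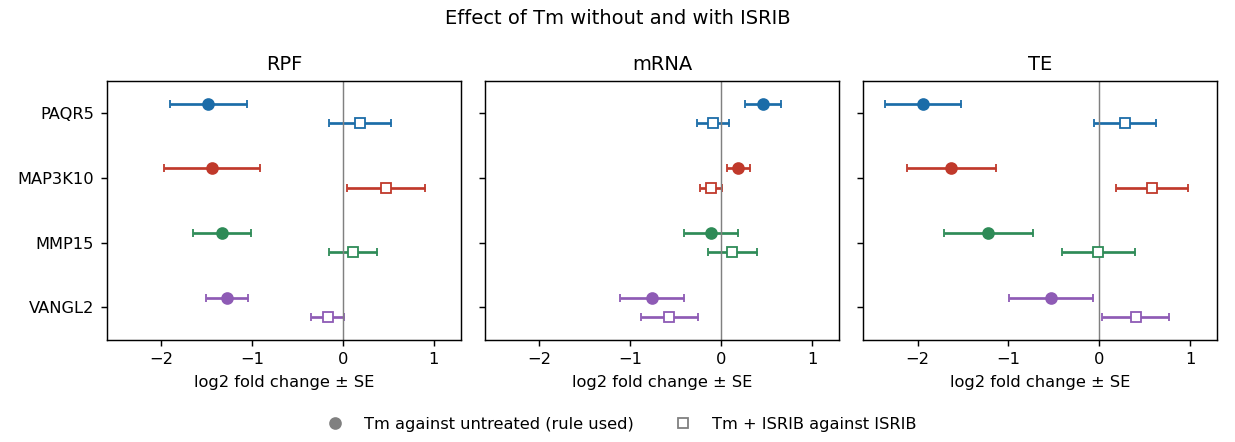
Log2 fold change ± SE (x axes) of RPFs, mRNA and TE for each gene (y axis), with filled circles for Tm against untreated cells, the comparison the rule used, and open squares for Tm + ISRIB against ISRIB. The circles lie between -1.48 and -1.28 in RPFs and between -1.94 and -0.53 in TE, and the squares between -0.17 and 0.47 in RPFs and between -0.01 and 0.58 in TE.

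The remaining comparisons share the Tm or the untreated libraries with the rule, and are given as values. With ISRIB added to Tm, RPFs were higher than in Tm by 1.38 ± 0.45 in PAQR5, 1.45 ± 0.55 in MAP3K10, 1.27 ± 0.34 in MMP15 and 1.13 ± 0.24 in VANGL2 (log2 ± SE), or 2.19-fold to 2.74-fold. Against untreated cells, Tm + ISRIB differed by -0.10 ± 0.29 in PAQR5, 0.01 ± 0.35 in MAP3K10, -0.06 ± 0.23 in MMP15 and -0.15 ± 0.17 in VANGL2, none by more than its error. ISRIB alone differed from untreated cells by -0.28 ± 0.31 in PAQR5, -0.46 ± 0.40 in MAP3K10, -0.17 ± 0.25 in MMP15 and 0.02 ± 0.17 in VANGL2. In TE, ISRIB alone gave -0.65 ± 0.33 for PAQR5 and -0.72 ± 0.38 for MAP3K10, which exceed their errors by a little under 2 times, beside -0.09 ± 0.42 for MMP15 and -0.12 ± 0.36 for VANGL2. The mRNA of PAQR5 and MAP3K10 stood higher in ISRIB than in untreated cells, by 0.37 ± 0.20 and 0.26 ± 0.13, beside -0.08 ± 0.30 for MMP15 and 0.14 ± 0.32 for VANGL2. As a check added after the data were seen, these values were refitted without ISRIB replicate a and without replicate b. PAQR5 moved little, to -0.62 and -0.67 in TE and 0.35 and 0.37 in mRNA. MAP3K10 gave -0.94 and -0.02 in RPFs and -1.20 and -0.26 in TE, with 0.27 and 0.24 in mRNA. MMP15 turned sign, with 0.20 and -0.83 in RPFs and 0.21 and -0.69 in TE, and had -0.01 and -0.14 in mRNA. VANGL2 turned sign too, with 0.59 and -0.41 in mRNA, -0.52 and 0.37 in TE, and 0.06 and -0.04 in RPFs.

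Across the 8 Ribo-Seq libraries, the log2 RPF levels of the 4 genes moved together, with Pearson's r of 0.562 for MAP3K10 and MMP15 up to 0.944 for PAQR5 and VANGL2. The Tm libraries that chose them carry this. Over the 6 other libraries r was between -0.418, again for MAP3K10 and MMP15, and 0.475, for PAQR5 and MAP3K10. These r values are descriptions over libraries that share treatments and depth. Among 1892 other named transcripts, the RPF pattern most like that of PAQR5 was that of MRPL37, a mitochondrial ribosomal protein (r = 0.982), then POMGNT1, a Golgi enzyme of protein O-mannosylation (0.975), and KIAA1841 (0.969). MRPL37 (0.974) was also among the nearest to VANGL2, with SMARCAL1, a DNA-annealing helicase (0.975), and HDLBP, an RNA-binding protein (0.974). MAP3K10 was nearest to LY75-CD302 (0.963), a read-through transcript whose reads cannot be told from those of the genes it joins, DNAH14 (0.958) and GDAP2 (0.953), and MMP15 to MEMO1 (0.982), ICMT (0.948) and ADCY3 (0.945). The likeness is of shape and not of size, since the RPF change of MRPL37 in Tm was -0.48 and that of KIAA1841 -1.05.

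The relatives and partners of the 4 proteins were looked up in 4 lists, of which only the members named in the tables used here could be found. These names cover chromosomes 1 and 2, part of chromosome 3 and the lists of the study. In the JNK cascade, the kinase relay that MAP3K10 feeds, 12 of 36 genes were tested. In Tm against untreated cells, where edgeR called 13.5% of all transcripts in RPFs, 3 of the 12 fell and 1 rose. MAPK8IP1 (JIP1), a scaffold that holds JNK together with its upstream kinases, fell by 1.11 ± 0.34 (adjusted p = 0.04 in edgeR). SH3RF3, a ubiquitin ligase of the POSH family of JNK scaffolds, fell by 1.12 ± 0.35 (adjusted p = 0.044). Both are on the list that the study drew from these samples, so they are not independent of the choice. Genes outside the chromosomes covered have a symbol here only if the study listed them as changed. The count among the 12 therefore cannot be set against the share over all transcripts. JUN, the transcription factor at the end of the cascade, fell by 0.34 ± 0.10 (adjusted p = 0.036), and GADD45A, a stress-induced activator of the kinase MAP3K4, rose by 0.51 ± 0.16 (adjusted p = 0.038), and both are named after their values were seen. The other kinases of the MAP3K tier gave -0.01 ± 0.14 (MAP3K2), 0.31 ± 0.19 (MAP3K6), -0.13 ± 0.13 (ZAK) and -0.40 ± 0.16 (KIAA1804), none past the FDR. KIAA1804 is, like MAP3K10, a mixed-lineage kinase. With ISRIB present, edgeR called 1.34% of all transcripts in RPFs, 0.0% in mRNA and 1.18% in TE, and none of the 12. In a set of this size, shares so low give few calls or none. The RPF changes of MAPK8IP1 and SH3RF3 then stood at 0.31 ± 0.31 and 0.07 ± 0.30.

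In planar cell polarity and non-canonical Wnt signalling, 11 of 39 genes were tested, and none passed in RPFs in either comparison. Over all transcripts, 13.5% were called in Tm and 1.34% with ISRIB present. VANGL1, the paralog of VANGL2, had an RPF change in Tm of -0.13 ± 0.14 (adjusted p = 0.64 in edgeR), and its RPF level was 30.9 CPM in untreated cells and 28.1 CPM in Tm. The difference between the paralogs was not tested, because VANGL2 was chosen on this value. The 3 genes of the list with the most footprints were RHOC and ROCK2, which act on the actin cytoskeleton, and CELSR2, a cadherin of the polarity complex, at -0.17 ± 0.10, -0.22 ± 0.11 and 0.05 ± 0.14. In TE, where 15.9% of all transcripts were called in Tm, the Wnt receptor FZD5 fell by 0.74 ± 0.26 (adjusted p = 0.074 in edgeR) and DVL1, the protein that relays from the receptor, by 0.65 ± 0.21 (adjusted p = 0.052). Both were named after their values were seen. CELSR2 rose in TE by 0.75 ± 0.33 and did not pass the FDR (adjusted p = 0.16 in edgeR). The median TE change of the 11 genes was -0.06. With 2 of 11 called, near the share over all transcripts, nothing is read from the count. DVL1 was also the 1 gene of the 4 lists called in mRNA in Tm, up by 0.26 ± 0.08 (adjusted p = 0.087), where 11.0% of all transcripts were called.

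Of the 21 membrane metalloproteases and their inhibitors, ADAM15, ADAM17 and ADAM23 were tested, all cell-surface proteases or their relatives. Their RPF changes in Tm were -0.21 ± 0.12, -0.11 ± 0.15 and -0.36 ± 0.19, and none passed the FDR. In TE, ADAM15 fell by 0.36 ± 0.14 (adjusted p = 0.095 in edgeR). Of the progestin and adiponectin receptor family and its partners, ADIPOR1, the adiponectin receptor of most tissues, was the 1 tested of 14. Its RPF level was 40.1 CPM in untreated cells and 32.9 CPM in Tm, a change of -0.29 ± 0.12 (adjusted p = 0.15), and its TE fell by 0.36 ± 0.12 (adjusted p = 0.07). With ISRIB present its RPF change was -0.01 ± 0.12. No gene of the 4 lists passed the FDR with ISRIB present in RPFs, mRNA or TE, beside 1.34%, 0.0% and 1.18% of all transcripts. The median RPF change in Tm was -0.18 over the 12 JNK genes and -0.07 over the 11 polarity genes. It was -0.21 over the 3 proteases, and -0.29 is the value of ADIPOR1 alone. Over all tested transcripts the median was -0.01. The lists are small, and the JNK list holds MAPK8IP1 and SH3RF3, which the study listed for their fall. Nothing is read from these medians.

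Of the study's 19 falling transcripts, 15 were tested, which leaves 11 beside the 4. All 11 are defined by an RPF fall, and the fits gave them a median of -1.08 in Tm. With ISRIB present, their median change was 0.01 in RPFs, -0.01 in mRNA and 0.11 in TE. Over all tested transcripts it was 0.00, -0.01 and 0.02. None of the 11 passed the FDR, beside 1.34%, 0.0% and 1.18% of all tested transcripts in the same order. The mRNA change of the 11 in Tm lay between -0.64 and 0.37, beside 0.46 for PAQR5 and -0.76 for VANGL2, the latter -0.23 without untreated replicate a. Both Tm libraries were the lowest of the 8 in 9 of the 11, beside 15.1% of all tested transcripts. The 11 were listed for their fall in Tm, so nothing is read from this count.

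The matched GENCODE transcript of each holds exactly 1 AUG in its 5′ UTR, and in each case the reading frame that starts there closes before the coding sequence. That arrangement is found in 14.6% of the 1751 matched transcripts, the 4 included, and 51.1% have at least 1 upstream AUG. It is described from the 4 themselves, so nothing is read from all 4 showing it. The 1751 are named transcripts, which cover only some chromosomes and the lists of the study. Shares and ranks among them are therefore not those over all tested transcripts. The frame has 4 codons in PAQR5, 30 in MAP3K10, 19 in MMP15 and 3 in VANGL2, and starts 74, 125, 381 and 436 bases before the coding sequence. For PAQR5, 3 annotated transcripts have this coding length, with 5′ UTRs of 131 to 672 bases and 1 to 8 upstream AUGs, so its count depends on which of them the cells use. No footprints over 5′ UTRs were analysed here, and whether these frames are translated was not tested. The 5′ UTR is 131 bases long in PAQR5, 288 in MAP3K10, 785 in MMP15 and 474 in VANGL2, against a median of 190. MMP15 exceeds 96.5% of the matched transcripts and VANGL2 88.7%.

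The coding sequences of MAP3K10, MMP15 and VANGL2 are rich in G and C, at 68.5%, 65.2% and 60.3% against a median of 49.5% over the 1751. That of PAQR5 is near this median at 51.9%. The median is again of named transcripts from only some chromosomes and the lists of the study. How the 4 stand in GC content among all tested transcripts was not measured. Over 1770 other transcripts, coding GC content and the RPF change in Tm had a Pearson's r of -0.10, and r reached -0.30 between GC content and the ratio of the 2 untreated Ribo-Seq replicates. Differences between replicates of 1 treatment were thus related to GC content too, and the part of GC content in the values of the 4 transcripts was not tested. The proteins are 330 (PAQR5), 954 (MAP3K10), 669 (MMP15) and 521 (VANGL2) residues long. Each holds the letters of an N-linked glycosylation motif, asparagine, any residue but proline, then serine or threonine. There are 2 in PAQR5, 1 in MAP3K10, 1 in MMP15 and 4 in VANGL2, and 80.8% of the 1751 have at least 1. MAP3K10 lies in the cytosol, where the motif is not glycosylated, and a match says nothing of its use in the others.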

How the data were processed

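Ribo-Seq and mRNA-Seq were analyzed in HEK293T cells under 4 treatments with 2 replicates each. The authors deposited raw read counts for each UCSC transcript, taken over its coding sequence in each library and not normalized, made on hg19 with CASAVA 1.8, Bowtie 1.0.0 and TopHat2 2.0.10 and 2.0.7 per the submitters' processing notes. The tables also hold the number of codons counted, 20 fewer than the annotated coding sequence. How the authors' counting treated reads shared by isoforms or gene copies cannot be seen in the counts, and PCR copies cannot be told from separate fragments, so intervals cover the spread between libraries as fitted. Of 21520 Ribo-Seq transcripts, 19044 had the same identifier without its version and the same counted length in mRNA-Seq. Symbols come from the study's tables of identifiers and cover 1949 of these.

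Transcripts kept by filterByExpr with a minimum of 10 counts in both assays (10970, of which 1893 have a symbol) were fitted in edgeR 4.0.16 (R 4.3.3) with TMM scaling and the quasi-likelihood test, over all 8 libraries of an assay, and over all 16 for TE as the interaction of treatment and assay. Benjamini-Hochberg adjustment covered all tested transcripts, with an FDR of 0.1. The common BCV, edgeR's measure of the spread between replicates, was 5.62% (Ribo-Seq) and 6.7% (mRNA-Seq). With 2 replicates a side, an exact two-sided permutation test of a single value cannot go below p = 0.33, so none was run. The scripts were tested on simulated data. DESeq2 1.42.0, other scalings and filters, the replicate block, a fit of the compared treatments alone and each library left out were alternatives.

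The members and gene lists were chosen with earlier results of these data known. The genes named are the 4 transcripts, their neighbours by RPF fall, the 3 transcripts most like each in RPF pattern (log2 of CPM plus 0.5), and list genes past the FDR with ISRIB present or changed over 2-fold in Tm, else the 3 with most footprints. VANGL1 and the kinases of the MAP3K tier were added as relatives of VANGL2 and MAP3K10. JUN, GADD45A, FZD5 and DVL1 were added after their values were seen. They passed the FDR in Tm against untreated cells in RPFs or TE. Gene models are from GENCODE v29 on GRCh38, matched by symbol and coding length (1774 of 1893 tested).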

Additional observations from a re-analysis of the deposited data

Results flagged for a closer look

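For 4 values among RPFs, mRNA and TE, Tm moved both libraries one way without ISRIB and both the other way with it, so that neither pair of groups overlapped. PAQR5 RPFs changed by -1.48 in Tm against untreated cells, the comparison that chose the transcript, and by 0.19 in Tm + ISRIB against ISRIB (log2). PAQR5 mRNA changed by 0.46 and by -0.09, and MAP3K10 mRNA by 0.19 and by -0.11. PAQR5 TE, whose RPF to mRNA ratios did not overlap in either comparison, changed by -1.94 and by 0.28. The differences were not tested, and 2 groups of 2 can separate by chance. The rule set the fall of PAQR5 RPFs, and with it the RPF part of the PAQR5 TE fall. The share of all tested transcripts with such a pattern was not counted, so nothing is read from how many values show it.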

How the results depend on the processing

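With 2 replicates and 8 to 41 reads over both Tm libraries, depth limits PAQR5 and MAP3K10 most. The filter at 50 counts removed PAQR5, MAP3K10 and MMP15, so that setting gives values for VANGL2 only. The calls in Tm + ISRIB against ISRIB moved with the settings. RPF calls (147) were 319 with no filter on low counts, 61 with DESeq2's Wald test, 515 when only the 2 treatments compared were fitted, and 0 to 363 with 1 library left out. Calls in mRNA (0) were 91 with DESeq2's Wald test and 0 to 3098 with 1 library left out. TE calls (129) were 260 with no filter, 79 with a filter at 50 counts, 0 with only the 2 treatments compared, 285 with the replicate block, and 0 to 1315 with 1 library left out. The cause was not tested.

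The replicate letters are shared by all treatments but were not shown to pair lysates across them. Deviations of same-letter libraries correlated at -0.026 in Ribo-Seq and 0.413 in mRNA-Seq for Tm + ISRIB and ISRIB. The replicate block gave 187 RPF calls in place of 147.

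With 1 library left out, the RPF change in Tm against untreated cells ranged from -1.67 to -1.35 (PAQR5), -1.71 to -1.19 (MAP3K10), -1.59 to -1.16 (MMP15) and -1.34 to -1.21 (VANGL2), and with ISRIB present from 0.12 to 0.26, 0.03 to 0.94, -0.26 to 0.76 and -0.23 to -0.11. MMP15 turned sign in RPFs with ISRIB present without ISRIB replicate a (-0.26) and without Tm + ISRIB replicate a (-0.05). Its TE change in Tm ranged from -1.81 to -0.51, and its mRNA change in Tm turned to 0.12 and 0.22 without untreated or Tm replicate a (range with 1 library left out -0.65 to 0.22). The TE change of MMP15 with ISRIB present, -0.01, turned to 0.04 with total counts, 0.01 with DESeq2, 0.05 with the replicate block by lysate, and 0.01 and 0.58 without Tm + ISRIB or ISRIB replicate b (range -0.33 to 0.58). That of VANGL2 turned to -0.09 without ISRIB replicate b (range -0.09 to 0.79). With ISRIB present, none of the 53 alternative RPF values of the 4 transcripts from edgeR passed the FDR (lowest adjusted p = 0.67).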
